A study of Mus musculus with 48 samples.

Results

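Macrophages owe their identity to a small circle of transcription factors, and 10 genes of that circle were followed by symbol: Spi1, Maf, Cebpa, Cebpb, Irf8, Klf4, Nr4a1, Zeb2, Runx1 and Pparg. Each was represented by the probe set annotated to its symbol, with the highest mean deciding where a gene had several. Probe sets were matched for 9 of the 10 genes, 1 probe set each, among the 19505 genes tested. Zeb2 was not analysed here.

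The levels came from 48 Affymetrix arrays of cultured macrophages of BALB/c male mice, 3 arrays in each of 16 groups. Kupffer cells are the macrophages that live in the sinusoids of the liver, and they had been sorted from it by a surface antigen of mature macrophages, the product of Adgre1. Monocytic macrophages came from blood monocytes of those animals, sorted by CD115. All cells first spent 1 day in MCSF, the growth factor that keeps macrophages alive, and then 1 or 3 days with an addition or, as controls, in MCSF alone. The additions were HGF (hepatocyte growth factor), Ito cells (hepatic stellate cells, which store vitamin A) and CD146 cells (its sinusoidal endothelial cells). No group carried a genetic change. The labels do not give the age of the mice, whether the added cells were kept apart or removed before lysis, or whether MCSF stayed beside an addition. The titles call the replicates biological without naming separate animals or cultures, so p-values measure the spread between these arrays.

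Spi1 encodes PU.1, the ETS factor without which the myeloid lineage does not form, and Runx1 acts upstream of it in blood stem cells. C/EBPalpha and C/EBPbeta (Cebpa, Cebpb) are leucine zipper factors of granulocyte and monocyte fate and of inflammatory gene induction, IRF8 steers progenitors to monocytes, and KLF4 and NR4A1 act in monocyte formation and survival. c-MAF (Maf) holds mature macrophages in a non-dividing, anti-inflammatory state, and PPARgamma (Pparg), a nuclear receptor that binds DNA with RXR, controls lipid handling in tissue macrophages.

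Levels below are deposited log2 signals given per array or as a mean ± SD (n = 3 per group), and differences are log2 differences of group means ± SE from limma, in which all 48 arrays share 1 estimate of the spread. Because that estimate is shared, SE and p are too small for the noisier Kupffer MCSF and Kupffer HGF groups of 1 day. For some genes this holds also in groups of 3 days, as for Maf and Irf8 in Kupffer HGF and cell cycle genes in monocytic MCSF. Words such as rose, fell, higher and lower are kept for differences whose limma p was under 0.05 after Benjamini-Hochberg adjustment across the 19505 genes. Additions to 1 cell type at 1 time share their 3 control arrays. The number of arrays limits the precision.

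The whole arrays differed in ways that touch these genes. The median of 5222 negative control probe sets lay between 4.73 and 5.79 by array, and Spi1, Maf, Cebpa, Cebpb, Irf8 and Runx1 lay above it on all 48 arrays, Klf4 on 36, Pparg on 30 and Nr4a1 on 11. The median signal of all genes ran from 4.29 to 5.35 by group. The median of the differences of all genes in a comparison, called the shift, was up to 0.71, in monocytic cells with HGF from 1 to 3 days. Where the shift was 0.24 or more in size, as in comparisons with the Ito cell groups of 1 day and the monocytic HGF group of 1 day, a called difference is followed by its value relative to the shift. Shifts of 0.11 to 0.18 in size, in Kupffer cells with HGF at 1 day or Ito cells at 3 days, in the comparison of the cells with CD146 cells at 3 days and in the MCSF and CD146 comparisons of time, are left in the values, and a relative value is added for some of them. Where no array of a group was above the negative control median, the measured difference is followed by a smaller size, which sets the mean of the other group against that median ("at least"). That size carries no error of the mean, so intervals and alternatives can reach below it. No such size was worked out for differences between responses. The 11 core macrophage genes were above the negative control in every group, as were 8 to 11 of 12 Kupffer cell genes in the Kupffer groups and 6 to 10 in the monocytic groups, while Clec4f, the defining marker among them, was at or below it in all 16. Of 6 cholangiocyte genes, none was above it in Kupffer controls of 3 days and all 6 were in each Kupffer group kept 3 days with an addition. Of 12 stellate genes 3 to 10 were above it in the groups kept with Ito or CD146 cells and 4 to 8 in the MCSF groups, and of 11 sinusoidal genes 1 to 6 and 1 to 11, with Lrat and Reln of the former and Stab2 and Mcam of the latter at or below it in every group kept with those cells. Arrays of 1 group stood apart in 3 places: B cell genes averaged from 4.27 to 10.62 among the Kupffer MCSF arrays of 1 day, cell cycle genes from 7.42 to 12.59 among the monocytic MCSF arrays of 3 days, and replicate 2 of Kupffer HGF at 1 day was the lowest of its 3 arrays for 8 of the 9 members. Without those 3 arrays 7 of the 89 calls on members were lost and 23 were gained.

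Calls on members were most frequent between 1 and 3 days, the kind of comparison that also had the largest share over all genes. Additions to Kupffer cells gave more calls than those to monocytic cells, both among the members and over all genes. Of 54 pairs of a member and an addition to Kupffer cells, 18 passed the test (7 higher, 11 lower), against 20.9% of all genes in those comparisons (8.97% higher, 12% lower). In monocytic macrophages 6 of 54 pairs passed (1 higher, 5 lower), against 13.9% of all genes (2.95% higher, 10.9% lower), and after quantile normalization the split was 2 higher and 3 lower. Kupffer and monocytic cells under the same conditions differed in 19 of 72 pairs (8 higher in Kupffer cells, 11 lower), against 19.9% of all genes (11.6% higher, 8.26% lower), with 5 and 12 after quantile normalization. Between 1 and 3 days 36 of 72 pairs passed (18 higher, 18 lower), against 38.3% of all genes (30.8% higher, 7.53% lower), with 18 and 28 after quantile normalization. Pparg was called in 23 of 34 comparisons, Cebpa and Irf8 in 14 each, Maf in 12, Klf4 in 10, Spi1 in 5, Cebpb and Nr4a1 in 4 each and Runx1 in 3. The share of all genes called, beside which these counts stand, was 11.6% to 38.3% by kind of comparison. It was lowest for differences between responses and highest for time.

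**Figure D1:**
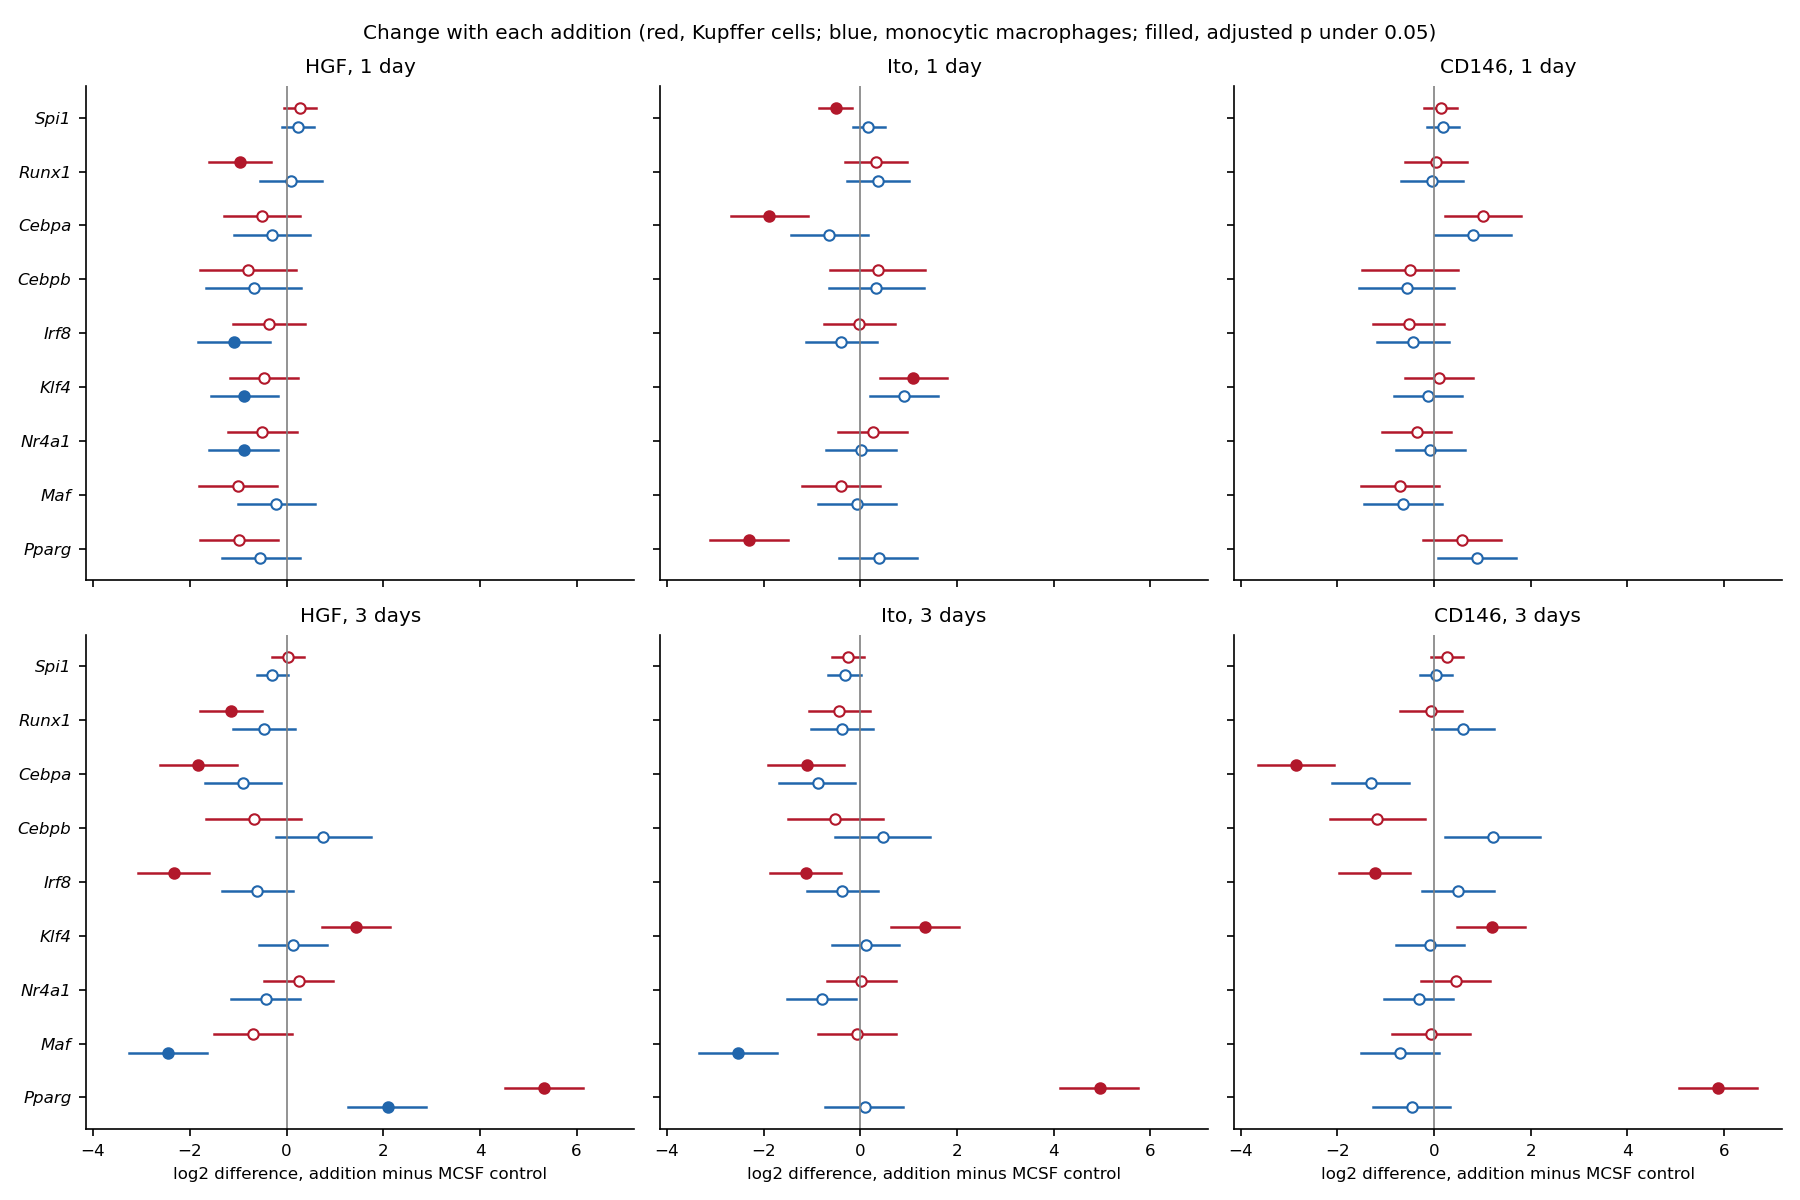
Log2 difference of each member from the MCSF control of the same cell and day (horizontal axis, addition minus control, limma estimate with its 95% interval, 3 arrays per group) in 6 panels by addition and day, with Kupffer cells in red and monocytic macrophages in blue, filled where the adjusted p was under 0.05. In Kupffer cells at 3 days Pparg lay at 5.32, 4.95 and 5.88 and Cebpa at -1.82, -1.11 and -2.85 for HGF, Ito and CD146 cells.

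At 3 days the 3 additions to Kupffer cells gave the same list of calls but for Runx1. HGF changed 5 of 9 members, against 27.6% of all genes, Ito cells 4 of 9 against 26.8%, and CD146 cells 4 of 9 against 26.4%. In each, Pparg and Klf4 were higher than in the MCSF control and Cebpa and Irf8 lower. At 1 day Ito cells changed 4 of 9 members in Kupffer cells (23.5% of all genes), HGF 1 of 9 (17.5%), and CD146 cells 0 of 9 by limma, with 1 at an unadjusted p under 0.05 (3.78%). The 3 comparisons of 3 days share their control arrays, so their like calls are not independent of each other.

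In monocytic macrophages at 1 day 3 of 9 members (Irf8, Klf4 and Nr4a1) were lower with HGF, against 37.5% of all genes called. The median difference over all genes was -0.55 there. After median centring limma gave these members adjusted p of 0.514, 0.744 and 0.721. Ito cells changed 0 of 9 by limma (1 at an unadjusted p under 0.05), against 15.5%, and CD146 cells 0 of 9 (2 unadjusted), against 2.33%. At 3 days HGF changed 2 of 9, against 13% of all genes, Ito cells 1 of 9 against 12.5%, and CD146 cells 0 of 9 (2 unadjusted) against 2.4%.

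Between the cells of different origin, the number of members that differed at 1 day was 2 of 9 in MCSF (21.3% of all genes), 5 of 9 with HGF (53.8%), 0 of 9 by limma with Ito cells (2 at an unadjusted p under 0.05, 3% of all genes) and 1 of 9 with CD146 cells (14.2%). At 3 days it was 3 of 9 in MCSF (12.1%), 2 of 9 with HGF (20%), 2 of 9 with Ito cells (8.81%) and 4 of 9 with CD146 cells (25.8%).

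From 1 to 3 days, Kupffer cells changed 5 of 9 members in MCSF (31.8% of all genes), 3 with HGF (42.7%), 6 with Ito cells (48.6%) and 3 with CD146 cells (24.6%). Monocytic macrophages changed 6 in MCSF (29.3%), 4 with HGF (60.6%), 6 with Ito cells (41.5%) and 3 with CD146 cells (27.2%). Irf8 and Pparg rose in all 4 monocytic settings.

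Spi1 was the most even of the members. Its signal ran from 18.20 to 19.36 over the 48 arrays, and the highest value of any probe set deposited was 19.93. The SD of its 16 group means was 0.23, above that of 3.8% of all genes. Its mean signal was above that of 99.9% of all genes. Whether a place so near the top of the scale narrowed its spread was not tested. Kupffer controls of 1 day read 18.89, 19.01 and 18.71 and Kupffer cells with Ito cells for 1 day 18.20, 18.23 and 18.65, without overlap between the groups. The difference of -0.51 ± 0.16 (adjusted p = 0.0202) was -0.27 relative to the shift of all genes, and after centring each array on its median the adjusted p was 0.779. Spi1 was also higher in Kupffer than in monocytic cells in MCSF at 1 day (0.45 ± 0.16, adjusted p = 0.0473, with 11 of 15 alternatives ending the call) and with HGF at 1 day (0.49 ± 0.16, adjusted p = 0.0133, 0.09 relative to the shift), and the latter turned to -0.14 after median centring. Between 1 and 3 days it rose by 0.46 ± 0.16 in monocytic controls (adjusted p = 0.0321, 0.32 relative to the shift, adjusted p = 0.618 after centring). It fell by 0.45 ± 0.16 in Kupffer cells with HGF (adjusted p = 0.0252, -0.75 relative to the shift), which turned to 0.66 after quantile normalization. No addition to monocytic macrophages changed Spi1 by limma (0 of 6, and 0 at an unadjusted p under 0.05).

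Runx1, the partner of CBFbeta at myeloid enhancers, had group means from 9.86 ± 1.19 in Kupffer cells with HGF at 1 day to 11.55 ± 0.05 in monocytic cells with CD146 cells at 3 days. In Kupffer cells it was called with HGF at both times and with no other addition. At 3 days the HGF arrays read 9.63, 9.84 and 10.30 and the controls 10.90, 11.21 and 11.08. All 3 HGF arrays lay below the lowest control, a difference of -1.14 ± 0.32 (adjusted p = 0.0047) that held under each of the 15 alternatives. At 1 day the HGF arrays read 10.53, 8.49 and 10.57 against 11.00, 10.68 and 10.82. The difference of -0.97 ± 0.32 (adjusted p = 0.0303) was -0.20 without replicate 2, with an adjusted p of 0.568. The same array bears on the lower Runx1 of Kupffer than monocytic cells with HGF at 1 day (-1.09 ± 0.32, adjusted p = 0.00417, -1.50 relative to the shift, and an adjusted p of 0.204 without it), where the arrays of the groups overlap. With Ito and CD146 cells at 3 days the differences from the control were -0.43 (95% interval -1.07 to 0.21) and -0.06 (-0.70 to 0.58). Additions to monocytic macrophages changed Runx1 in 0 of 6 comparisons by limma (0 at an unadjusted p under 0.05), and time in 0 of 8 (2 unadjusted).

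**Figure D2:**
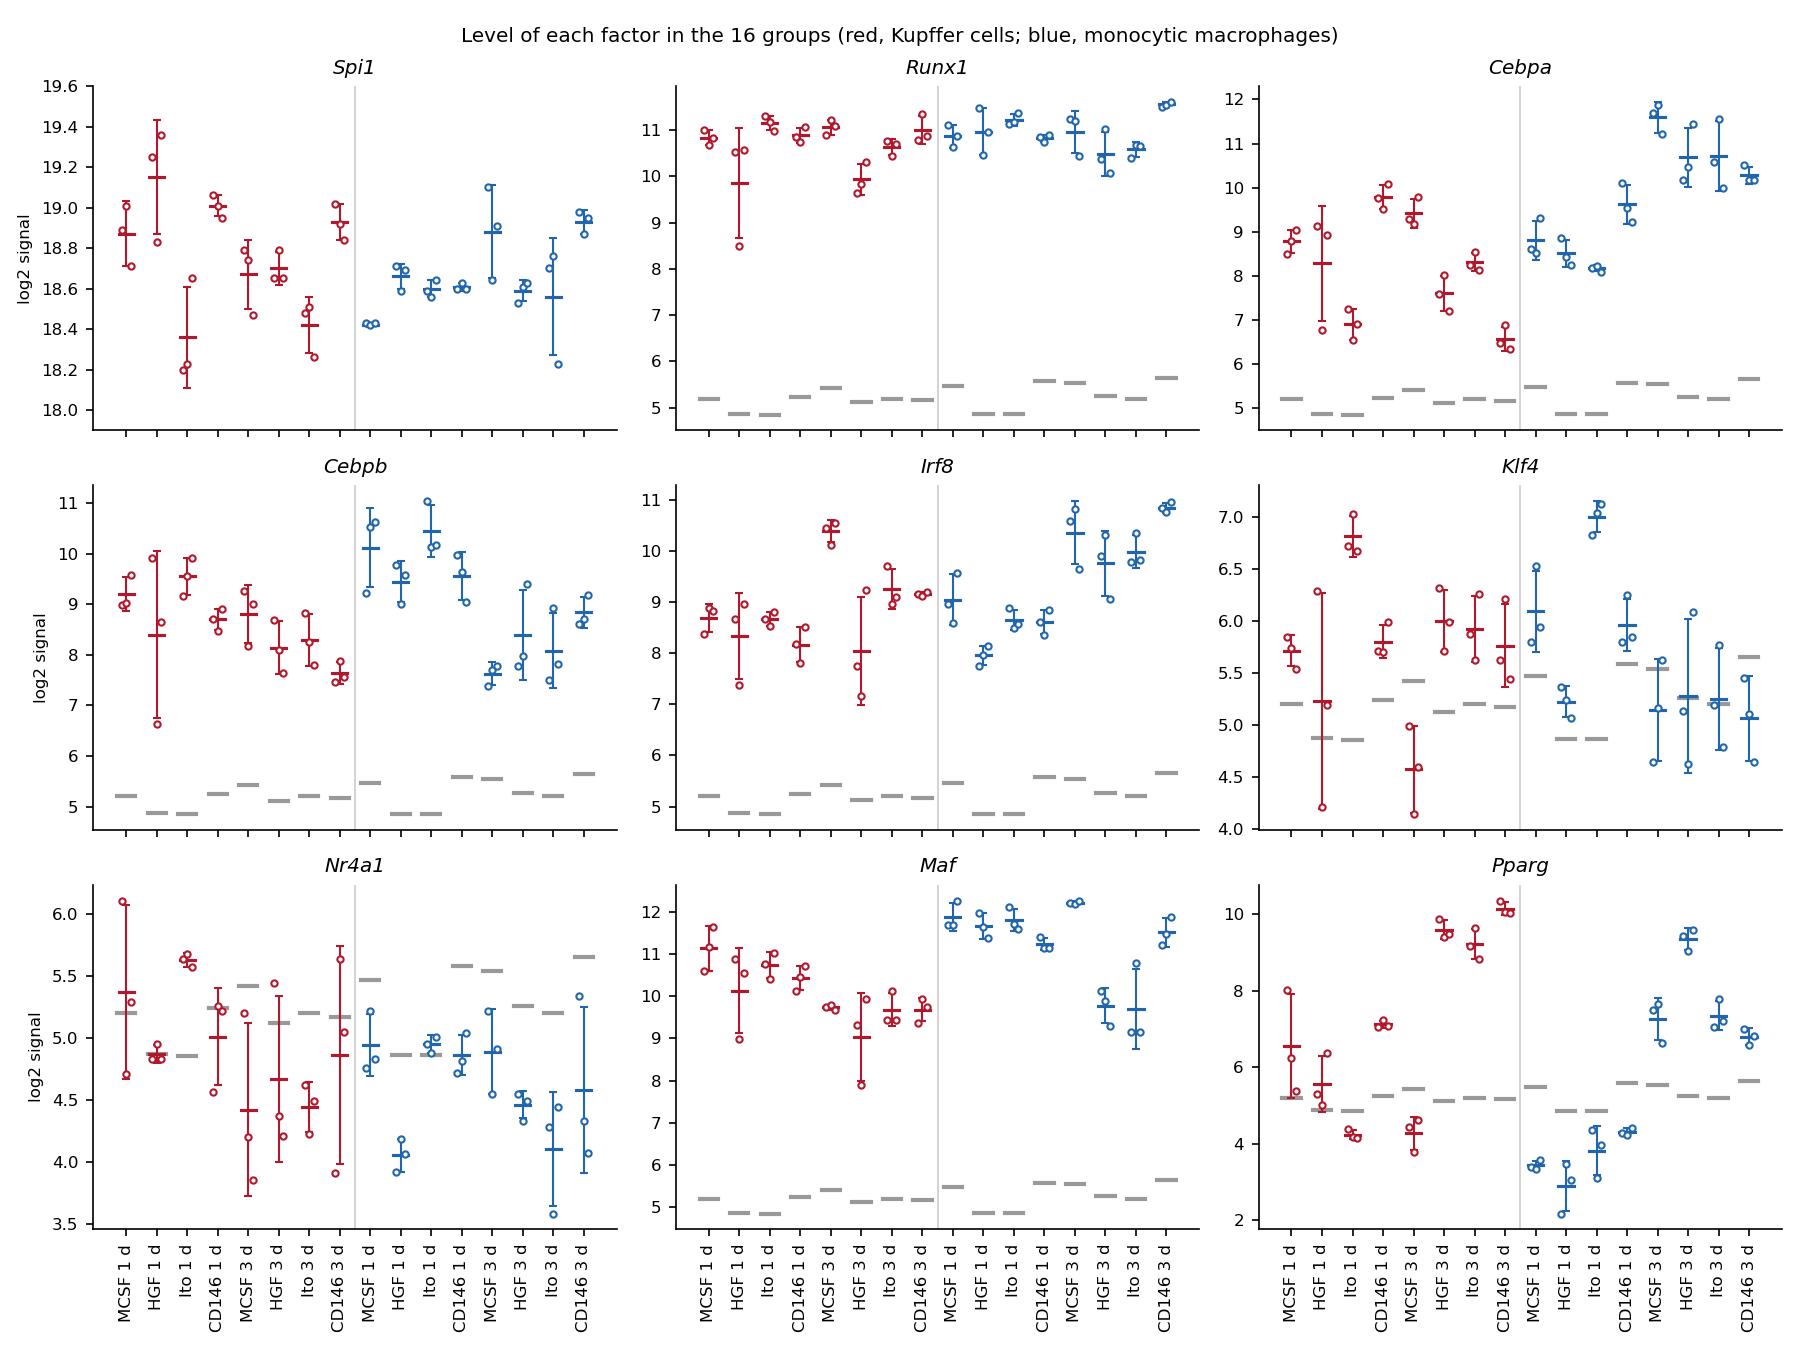
Log2 signal of the 9 members (vertical axis, 1 panel each) in the 16 groups, open points for arrays, a bar for the mean of 3 and an error bar for the SD, Kupffer cells in red, monocytic macrophages in blue, and the negative control median in grey where the axis reaches it. Pparg spans group means from 2.89 to 10.15 and Spi1 from 18.36 to 19.15.

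Cebpa had its lowest and highest levels in different cells at the same time. Its group means ran from 6.57 ± 0.28 in Kupffer cells with CD146 cells at 3 days to 11.60 ± 0.35 in monocytic controls of 3 days. In monocytic macrophages it rose with time in MCSF, with HGF and with Ito cells. The monocytic MCSF arrays read 8.60, 8.52 and 9.31 at 1 day and 11.70, 11.88 and 11.21 at 3 days, so that each later array lay above each earlier one. The rise was 2.79 ± 0.39 in MCSF (adjusted p = 3.76e-07, 2.66 relative to the shift), 2.18 with HGF (adjusted p = 1.33e-05, 1.47 relative) and 2.55 with Ito cells (adjusted p = 1.59e-06, 2.11 relative). With CD146 cells the difference over that time was 0.66 (95% interval -0.12 to 1.45, adjusted p = 0.217). With the additions at 3 days the monocytic levels differed from the control by -1.31 to -0.88 without passing the test. The -1.31 with CD146 cells had an adjusted p of 0.0634 and a 95% interval of -2.10 to -0.52.

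In Kupffer cells Cebpa was lower with each addition at 3 days than in MCSF. The controls read 9.29, 9.18 and 9.79, the HGF arrays 7.58, 8.01 and 7.21, the Ito cell arrays 8.24, 8.54 and 8.14 and the CD146 cell arrays 6.48, 6.89 and 6.35. All 9 arrays with an addition lay below the lowest control. The differences were -1.82 ± 0.39 with HGF (adjusted p = 0.000261), -1.11 with Ito cells (adjusted p = 0.0287, and up to 0.139 with 1 array left out) and -2.85 with CD146 cells (adjusted p = 1.38e-07). With Ito cells Cebpa had been low already at 1 day, at 7.25, 6.55 and 6.90 against 8.50, 8.80 and 9.04, a difference of -1.88 ± 0.39 (adjusted p = 0.000483, -1.64 relative to the shift). From there it rose by 1.40 to 3 days (adjusted p = 0.00321, 0.89 relative to the shift), with an adjusted p of 0.158 after centring. With CD146 cells it had been at 9.76, 9.52 and 10.08 at 1 day, 1.01 above the control without passing the test (adjusted p = 0.18), and then fell by 3.21 ± 0.39 to 3 days (adjusted p = 3.05e-08). Kupffer cells were thus lower in Cebpa than monocytic cells at 3 days with MCSF (-2.18, adjusted p = 5.45e-05), HGF (-3.10, adjusted p = 5.7e-08), Ito cells (-2.41, adjusted p = 1.53e-05) and CD146 cells (-3.71, adjusted p = 4.57e-10), without overlap of arrays. In these bulk samples fewer cells of a type and less RNA per cell cannot be told apart. The 11 core macrophage genes averaged 16.15 to 16.51 in the Kupffer controls of 3 days and 13.70 to 14.34 with the additions, and their part in the lower Cebpa was not tested.

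Cebpb, the C/EBP factor of the acute inflammatory response, fell with time in 3 of 8 settings (5 called at an unadjusted p under 0.05) and was called with no addition. Between 1 and 3 days 38.3% of all genes were called, 7.53% as lower. The monocytic MCSF arrays read 9.22, 10.52 and 10.62 at 1 day and 7.38, 7.71 and 7.78 at 3 days, without overlap. The difference was -2.50 ± 0.49 (adjusted p = 0.000103), and with Ito cells it was -2.37 ± 0.49 (adjusted p = 0.000158, -2.81 relative to the shift). In Kupffer cells the difference with Ito cells was -1.26 ± 0.49 (adjusted p = 0.0309, -1.77 relative to the shift, and an adjusted p of up to 0.128 with 1 array left out). None of the 6 additions to Kupffer cells and none of the 6 to monocytic cells changed it by limma, with 1 of each at an unadjusted p under 0.05. CD146 cells at 3 days gave differences of -1.18 in Kupffer cells (adjusted p = 0.0723) and 1.21 in monocytic cells (adjusted p = 0.226), neither past the threshold alone, while the difference between those responses, -2.39 ± 0.69, passed it (adjusted p = 0.00976).

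Irf8, the interferon regulatory factor that partners PU.1, rose with time in both kinds of control. Kupffer MCSF arrays went from 8.38, 8.88 and 8.82 at 1 day to 10.46, 10.13 and 10.56 at 3 days, and monocytic ones from 8.96, 8.59 and 9.58 to 10.59, 10.83 and 9.66. The ranges of 1 and 3 days did not overlap in either cell. The rise was 1.69 ± 0.37 in Kupffer cells (adjusted p = 0.000311) and 1.32 ± 0.37 in monocytic cells (adjusted p = 0.00504). Monocytic cells kept with additions rose as well, by 1.81 with HGF (adjusted p = 7.72e-05, 1.10 relative to the shift), 1.34 with Ito cells (adjusted p = 0.00337, 0.90 relative, and an adjusted p of 0.143 after centring) and 2.24 with CD146 cells (adjusted p = 7.62e-06). Kupffer cells with CD146 cells rose by 0.99 ± 0.37 (adjusted p = 0.0427), a call that 7 of 15 alternatives ended.

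Promoter windows were at hand for 7 of the 9 members, 11 windows in all, each the 250 bases before a start site in RefSeq's GRCm38.p6, and motifs were searched on both strands. Their letters and the share of all 32851 windows of that length that hold them were GAGGAA for PU.1 (23.3%), TTGCNNAA for C/EBP (9.56%), TGTGGT for RUNX (14%), the word GAAA repeated after any 2 bases for IRF (2.98%), TGANTCA for AP-1 (6.75%), TGACGTCA for CRE (1.55%), GGGTGTGG for KLF (3.2%), TGCTGA for MAF (16.1%) and the word AGGTCA repeated after any 1 base for PPAR (0.0335%). Beside the windows printed here, a MAF match lay in 1 of the Irf8 windows (position -157) and a PU.1 match in 1 of the Runx1 windows (position -46). A match of letters is a description and does not show that a factor binds.

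With additions at 3 days Irf8 stayed below the control in Kupffer cells. The HGF arrays read 7.76, 7.17 and 9.23, those with Ito cells 9.70, 8.96 and 9.11 and those with CD146 cells 9.16, 9.12 and 9.20, all below the lowest control of 10.13. The differences were -2.33 ± 0.37 (adjusted p = 1.85e-06), -1.13 (adjusted p = 0.0171, and up to 0.0828 with 1 array left out) and -1.23 (adjusted p = 0.00877). The 11 core macrophage genes averaged 16.15 to 16.51 in these controls and 13.70 to 14.34 with the additions. Their part in the lower Irf8 was not tested. In monocytic macrophages Irf8 was called with HGF at 1 day (7.76, 7.97 and 8.15 against 8.96, 8.59 and 9.58). That difference of -1.09 ± 0.37 (adjusted p = 0.0184) was -0.54 relative to the shift and had an adjusted p of 0.514 after centring. At 3 days Irf8 was lower in Kupffer than monocytic cells with CD146 cells (-1.70 ± 0.37, adjusted p = 0.000303), without overlap, and with HGF (-1.71 ± 0.37, adjusted p = 0.000463), with overlap through 1 Kupffer array at 9.23 and 1 monocytic array at 9.06.

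Klf4, a zinc finger factor that marks monocytes and drops as they mature, moved against Irf8 in Kupffer cells. Controls of 3 days read 4.99, 4.14 and 4.59, none above the negative control median. With HGF the arrays read 6.31, 5.71 and 5.99, with Ito cells 5.87, 5.62 and 6.26, and with CD146 cells 5.62, 6.21 and 5.44, all above the highest control. The rises were 1.43 ± 0.35 (adjusted p = 0.00119), 1.34 (adjusted p = 0.00261) and 1.19 (adjusted p = 0.00767, and up to 0.0694 with 1 array left out), or at least 0.58, 0.50 and 0.34. Ito cells gave a higher Klf4 already at 1 day (6.72, 7.03 and 6.67 against 5.84, 5.74 and 5.54), by 1.10 ± 0.35 (adjusted p = 0.018, 1.35 relative to the shift, and an adjusted p of up to 0.0752 with 1 array left out). The corresponding difference in monocytic cells was 0.90 (95% interval 0.20 to 1.61, adjusted p = 0.069, 1.19 relative to the shift). In monocytic cells with HGF at 1 day Klf4 fell by 0.87 (adjusted p = 0.0455), which was -0.32 relative to the shift, and 9 of 15 alternatives ended that call, with an adjusted p of up to 0.786. Klf4 fell between 1 and 3 days in the controls of both cells, with differences of -1.13 in Kupffer cells (adjusted p = 0.0102, at least 0.29 in size) and -0.95 in monocytic cells (adjusted p = 0.0342), and in both kept with Ito cells, with -0.89 (adjusted p = 0.0317, -1.40 relative to the shift) and -1.74 (adjusted p = 0.000101, -2.18 relative). The last of these held under all 15 alternatives, and the other 3 were each ended by leaving out single arrays, with an adjusted p of up to 0.196. In monocytic cells with CD146 cells it fell by 0.90 over that time (adjusted p = 0.0486, at least 0.31 in size), a call that 6 of 15 alternatives ended, with an adjusted p of up to 0.214.

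Monocyte marker genes moved with Klf4 in the Kupffer comparisons of 3 days. Of 8 such genes, 5 were higher and 2 lower with HGF, 5 and 2 with Ito cells, and 6 and 2 with CD146 cells. Their mean level was 9.35 to 9.66 in the control arrays, 10.85 to 11.69 with HGF, 11.68 to 12.47 with Ito cells and 10.73 to 10.98 with CD146 cells. Their part in the Klf4 difference was not tested.

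Nr4a1, an orphan nuclear receptor and early response gene needed by patrolling monocytes, was near the background throughout, with group means from 4.05 ± 0.13 in monocytic cells with HGF at 1 day to 5.63 ± 0.06 in Kupffer cells with Ito cells at 1 day. The 15 neighbouring pairs of groups in its order of means all overlapped. Its smallest adjusted p belonged to a difference of -1.19 ± 0.35 in Kupffer cells with Ito cells, from 5.64, 5.68 and 5.57 at 1 day to 4.62, 4.22 and 4.49 at 3 days (adjusted p = 0.00573, -1.70 relative to the shift). None of the later arrays was above the negative control median, which leaves a size of at least 0.43. Differences of -0.95 in Kupffer controls over that time (adjusted p = 0.035), of -0.88 with HGF in monocytic cells at 1 day (adjusted p = 0.0457, -0.34 relative to the shift), and the higher level of Kupffer than monocytic cells with HGF at 1 day (0.82, adjusted p = 0.0489, 0.42 relative) were ended by 7, 9 and 13 of 15 alternatives, and each of the 3 had a group with no array above that median.

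Maf fell with time in 5 of 8 settings, and with HGF and Ito cells in monocytic macrophages at 3 days. The monocytic controls stayed high, at 11.67, 11.67 and 12.26 at 1 day and 12.21, 12.18 and 12.24 at 3 days, the highest group of the 16. With HGF for 3 days the arrays read 10.11, 9.89 and 9.30 and with Ito cells 9.14, 10.77 and 9.16, all below the controls. The differences were -2.45 ± 0.40 (adjusted p = 2.27e-05) and -2.53 ± 0.40 (adjusted p = 1.44e-05), and both held under all 15 alternatives. With CD146 cells Maf read 11.21, 11.46 and 11.88. Cell cycle genes, 7 in number, were all higher with HGF and with Ito cells in monocytic cells at 3 days, and 1 was lower with CD146 cells. Their mean was 11.38 to 12.02 with HGF, 11.99 to 12.38 with Ito cells and 7.22 to 7.72 with CD146 cells, against 7.42 to 12.59 in the controls. The part of these genes in the lower Maf was not tested.

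In Kupffer cells Maf fell in MCSF itself. Its arrays went from 10.59, 11.17 and 11.64 at 1 day to 9.75, 9.78 and 9.67 at 3 days, a difference of -1.40 ± 0.40 (adjusted p = 0.00548) without overlap. At 3 days the Kupffer controls differed from the monocytic ones by -2.48 ± 0.40 (adjusted p = 8.29e-06). Of the 6 additions to Kupffer cells none changed Maf by limma (1 at an unadjusted p under 0.05, HGF at 1 day, with a 95% interval of -1.80 to -0.20). With Ito and CD146 cells at 3 days the 95% intervals were -0.87 to 0.73 and -0.86 to 0.74. Kupffer cells were lower than monocytic ones also with CD146 cells at 3 days (-1.84 ± 0.40, adjusted p = 0.000316) and with HGF at 1 day (-1.53, adjusted p = 0.00173, -1.93 relative to the shift, and an adjusted p of 0.0538 without replicate 2 of Kupffer HGF). Between 1 and 3 days Maf fell by 1.89 with HGF (adjusted p = 0.000124, -2.60 relative to the shift) and 2.11 with Ito cells (adjusted p = 4.5e-05, -2.55 relative) in monocytic cells. In Kupffer cells the differences were -1.09 with HGF (adjusted p = 0.024, -1.39 relative) and -1.06 with Ito cells (adjusted p = 0.0254, -1.58 relative), each lost when some single arrays were left out, and the HGF arrays of 1 and 3 days overlapped.

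**Figure D3:**
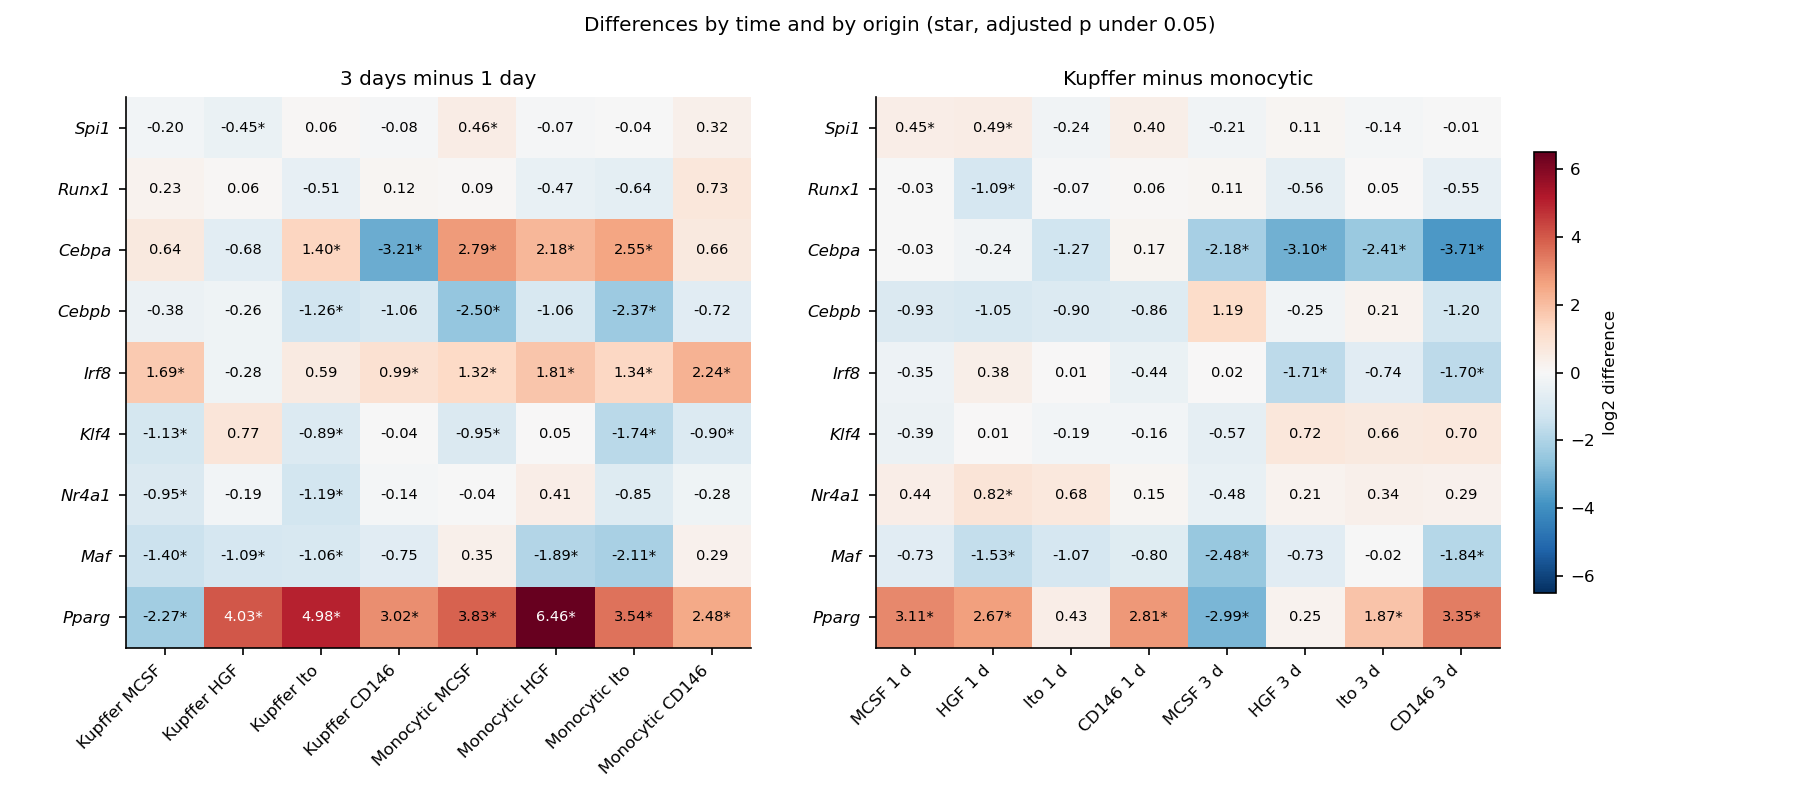
Heat maps of the log2 difference of each member (rows) between 3 and 1 days in each cell and addition, and between Kupffer and monocytic cells under the same conditions (columns), with a star where the adjusted p was under 0.05. Pparg rises with time in 7 of 8 columns and falls by 2.27 in Kupffer MCSF, and Cebpa is lower in Kupffer than in monocytic cells in all 4 columns of 3 days.

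Pparg had the widest range. The SD of its 16 group means was 2.38, above that of 99% of all genes, and the extremes were 2.89 ± 0.66 in monocytic cells with HGF at 1 day and 10.15 ± 0.18 in Kupffer cells with CD146 cells at 3 days. RefSeq gives the gene 3 start windows, and the 2 that held any of these motifs are printed because the letters are those of fellow members, PU.1 and C/EBP. Both are 250 bases before a start on the plus strand in GRCm38.p6. The first, at chr6:115362099-115362348, has the PU.1 letters GAGGAA (capitals, beginning at position -240 from the start, and found in 23.3% of all windows). The other, at chr6:115421816-115422065, has the C/EBP letters TTGCNNAA (capitals, beginning at positions -215 and -16, and found in 9.56% of all windows), with no overlap between matches. A gene-level probe set does not tell the starts apart.

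Pparg window with the PU.1 letters: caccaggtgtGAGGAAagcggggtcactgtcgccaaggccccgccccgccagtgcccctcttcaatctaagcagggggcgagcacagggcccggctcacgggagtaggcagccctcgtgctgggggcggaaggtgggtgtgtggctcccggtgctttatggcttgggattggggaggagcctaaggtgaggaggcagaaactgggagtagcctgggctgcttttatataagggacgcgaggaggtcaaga

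Pparg window with the C/EBP letters: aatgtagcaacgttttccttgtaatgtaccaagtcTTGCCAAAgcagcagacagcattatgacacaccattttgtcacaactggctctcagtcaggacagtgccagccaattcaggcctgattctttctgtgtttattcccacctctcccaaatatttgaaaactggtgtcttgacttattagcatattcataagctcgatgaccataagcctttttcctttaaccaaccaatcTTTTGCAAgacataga

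In Kupffer cells at 3 days Pparg separated the controls from every addition. The controls read 4.43, 3.77 and 4.62, none above the negative control median. With HGF the arrays read 9.88, 9.41 and 9.49, with Ito cells 9.17, 9.64 and 8.84, and with CD146 cells 10.36, 10.06 and 10.03. The lowest of the 9 arrays with an addition, at 8.84, lay above the highest control, at 4.62. The rises were 5.32 ± 0.40 (adjusted p = 3.77e-14), 4.95 ± 0.40 (adjusted p = 3.48e-13) and 5.88 ± 0.40 (adjusted p = 2.09e-15), and all held under the 15 alternatives. Against the negative control median of the controls they were at least 4.18, 3.80 and 4.73.

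At 1 day the pattern in Kupffer cells was another. The controls spread widely (8.03, 6.24 and 5.37), as did the HGF arrays (5.29, 5.01 and 6.38), while CD146 cells gave 7.05, 7.24 and 7.08 and Ito cells 4.39, 4.17 and 4.16. Ito cells lowered Pparg by 2.31 ± 0.40 (adjusted p = 4.19e-05, -2.06 relative to the shift, at least 1.70 in size), and with only the arrays compared in the fit the adjusted p was 0.0545. Under the alternatives the difference ran from -2.90 to -1.57. Other markers moved in that comparison: from the controls to the Ito cell arrays the 6 cholangiocyte genes went from 6.34 to 9.17 down to 4.47 to 4.61 (6 of 6 lower), the 11 sinusoidal genes from 7.07 to 9.74 down to 5.52 to 5.55 (11 of 11 lower), and the 9 neutrophil genes from 8.15 to 9.29 up to 10.99 to 11.21 (6 higher, 1 lower), and their part in the lower Pparg was not tested. CD146 cells gave a difference of 0.58 (95% interval -0.23 to 1.38). So with Ito cells Pparg rose by 4.98 ± 0.40 between 1 and 3 days (adjusted p = 5.99e-13, 4.47 relative to the shift, at least 4.37), with HGF by 4.03 (adjusted p = 1.9e-10, 3.73 relative) and with CD146 cells by 3.02 (adjusted p = 1.66e-07), while in MCSF it fell by 2.27 (adjusted p = 1.6e-05, at least 1.13 in size).

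In monocytic macrophages Pparg rose with time in every setting. At 1 day no array of any of the 4 groups was above its negative control median, with values from 2.17 to 4.42. At 3 days the controls read 7.50, 7.66 and 6.63, HGF 9.43, 9.04 and 9.58, Ito cells 7.06, 7.79 and 7.20 and CD146 cells 7.01, 6.57 and 6.82. The rises were 3.83 in MCSF (adjusted p = 5.16e-10), 6.46 with HGF (adjusted p = 3.18e-16, 5.75 relative to the shift), 3.54 with Ito cells (adjusted p = 2.65e-09, 3.10 relative) and 2.48 with CD146 cells (adjusted p = 5.86e-06), or at least 1.79, 4.49, 2.49 and 1.22. Of the additions at 3 days HGF passed against the control, with all 3 arrays above the controls and a rise of 2.09 ± 0.40 (adjusted p = 0.000241). With Ito and CD146 cells the differences were 0.09 (95% interval -0.72 to 0.89) and -0.46 (-1.27 to 0.34).

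Kupffer cells were higher in Pparg than monocytic cells at 1 day in MCSF (3.11 ± 0.40, adjusted p = 1.83e-07), with HGF (2.67, adjusted p = 1.91e-06, 2.27 relative to the shift) and with CD146 cells (2.81, adjusted p = 3.17e-06), with no overlap. As no monocytic array of 1 day was above the negative control median, these are at least 1.08, 0.70 and 1.54. Genes of other liver cells differed there too. In MCSF the Kupffer and monocytic groups averaged 8.32 and 3.81 for sinusoidal, 7.33 and 3.87 for hepatocyte and 7.71 and 3.46 for cholangiocyte genes. With HGF these averages were 7.83 and 3.22, 6.72 and 3.12, and 7.42 and 2.91. With CD146 cells they were 5.68 and 3.71, 6.73 and 4.00, and 5.76 and 3.61. Their part in the Pparg differences was not tested. At 3 days the order turned in MCSF, where the difference was -2.99 ± 0.40 (adjusted p = 2.29e-07, at least 1.84 in size). Kupffer cells were higher in Pparg with Ito cells (1.87, adjusted p = 0.00088) and with CD146 cells (3.35, adjusted p = 7.31e-09). In the order of the 16 group means, 4 of the 15 neighbouring pairs did not overlap: Kupffer CD146 over Kupffer HGF at 3 days, Kupffer Ito over monocytic Ito at 3 days, Kupffer CD146 at 1 day over monocytic CD146 at 3 days, and Kupffer HGF over monocytic CD146 at 1 day.

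Markers of other states moved with Pparg in Kupffer cells. The 7 cell cycle genes averaged 7.49 to 7.66 in the Kupffer controls of 3 days, 13.20 to 13.62 with HGF, 12.83 to 12.98 with Ito cells and 13.37 to 13.51 with CD146 cells, and all 7 were higher with each addition. The 6 cholangiocyte genes averaged 3.64 to 3.89 in the controls, with Krt7, Krt19, Epcam, Sox9, Krt8 and Krt18 all at or below the negative control, and 9.89 to 10.95, 7.30 to 7.93 and 8.36 to 8.99 with HGF, Ito and CD146 cells. Of 10 hepatocyte genes, 9, 8 and 3 were higher with HGF, Ito and CD146 cells, and Hnf4a and Cyp2e1 were at or below the negative control in all 3. The part of these cells in the higher Pparg was not tested. In monocytic cells with HGF at 3 days, where Pparg was also higher, the cholangiocyte genes averaged 3.68, against 3.99 in their controls. The cell cycle genes averaged 11.67 there, against 9.22 in the controls, whose arrays ran from 7.42 to 12.59. The part of either list in that higher Pparg was not tested.

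**Figure D4:**
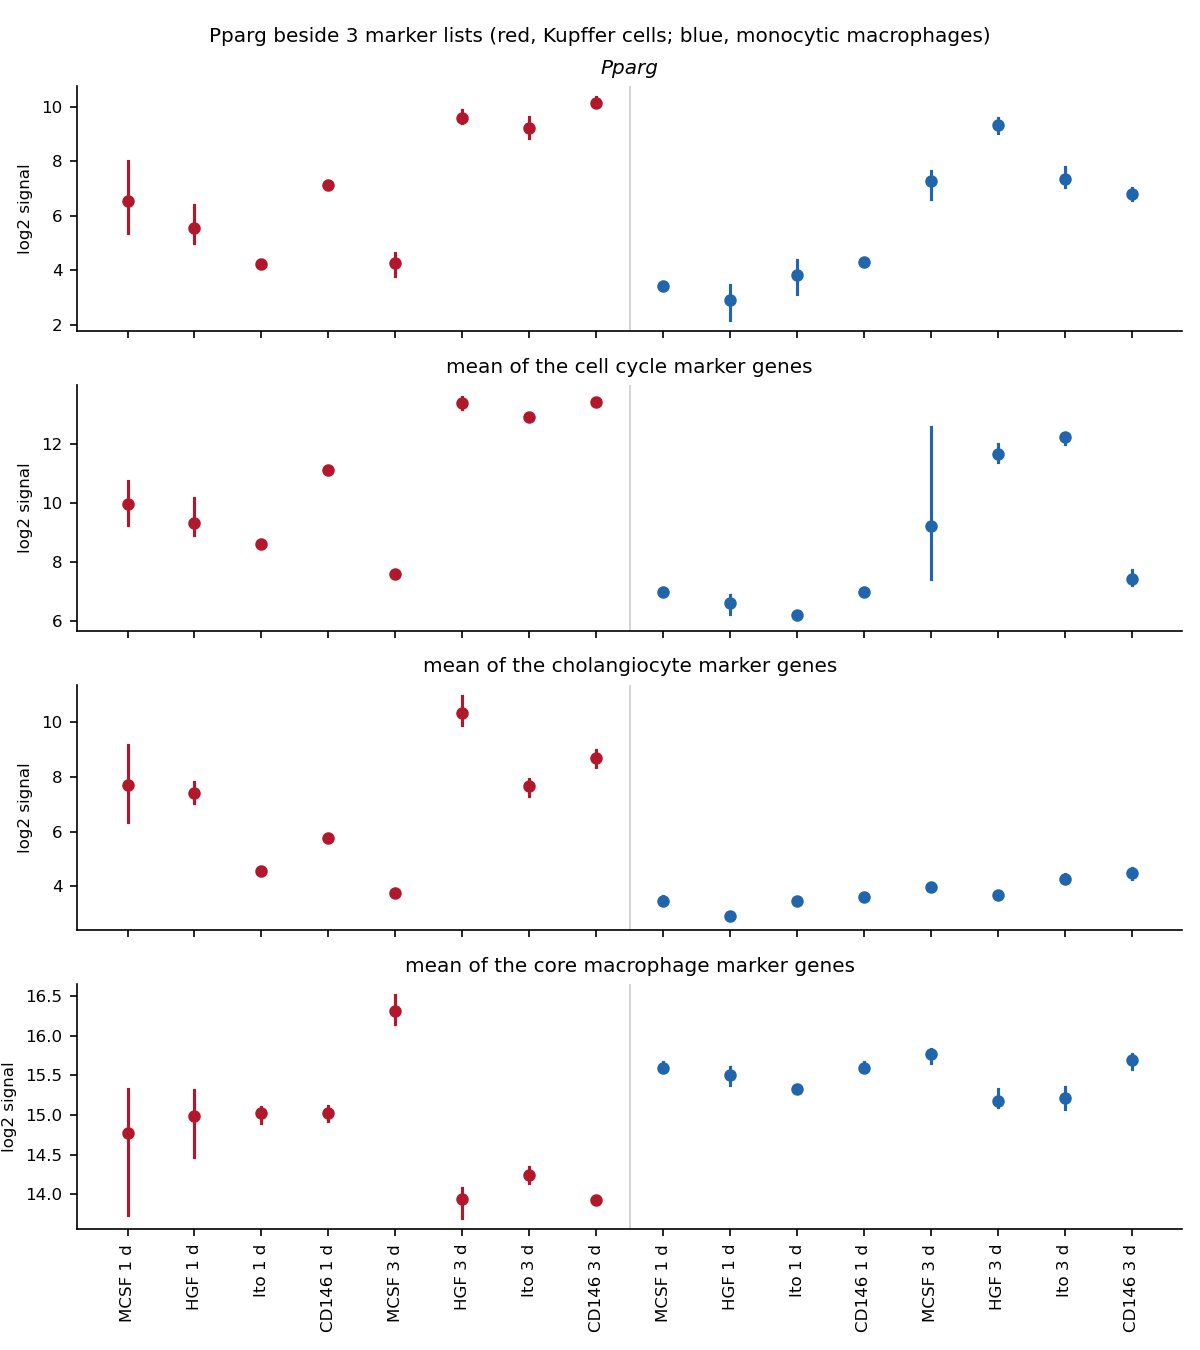
Log2 signal of Pparg and mean log2 signal of the cell cycle, cholangiocyte and core macrophage genes (vertical axes) in the 16 groups, with points for group means and lines for the range of 3 arrays, Kupffer cells in red and monocytic macrophages in blue. The Kupffer groups of 3 days with an addition are high for Pparg, cell cycle and cholangiocyte genes, and the Kupffer control of 3 days is low for all 3 and highest for the core macrophage genes.

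The Kupffer and monocytic responses to an addition were then set against each other. Of 54 pairs of a member and a response, 10 differed (5 higher in Kupffer cells, 5 lower), against 11.6% of all genes (7.45% higher, 4.2% lower). They involved Pparg, Irf8, Maf, Cebpa and Cebpb. At 3 days 3 of 9 members differed with HGF (15.2% of all genes), 2 of 9 with Ito cells (8.75%) and 4 of 9 with CD146 cells (18.2%). At 1 day 1 of 9, Pparg, differed with Ito cells (3.74% of all genes). None did by limma with HGF (1 at an unadjusted p under 0.05, 23.1% of all genes called) or with CD146 cells (0 at an unadjusted p under 0.05, 0.877%). For Pparg the Kupffer response exceeded the monocytic one by 3.24 ± 0.56 with HGF (adjusted p = 3.76e-05), 4.86 with Ito cells (adjusted p = 2.12e-08) and 6.34 with CD146 cells (adjusted p = 1.45e-11) at 3 days. These sizes rest on Kupffer controls (mean 4.27) with no array above the negative control median (5.42). For Maf the Kupffer minus the monocytic response was 1.75 ± 0.56 with HGF (adjusted p = 0.0266) and 2.46 with Ito cells (adjusted p = 0.00212). In both, the monocytic level fell and the Kupffer level was low in the control as well. The HGF value for Maf was ended by 6 of 21 alternatives, with an adjusted p of 0.131 without replicate 3 of Kupffer HGF.

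Over the 16 group means the members did not move as a block. The 36 correlations between them ran from -0.81 for Cebpb with Pparg to 0.60 for Cebpa with Irf8 and for Klf4 with Nr4a1. Maf and Pparg were at -0.63, Cebpa and Klf4 at -0.57, Irf8 and Klf4 at -0.54, Maf and Runx1 at 0.57 and Maf and Cebpb at 0.56. The group means share time, cell and array scale, so these values are descriptions without a test. Among 7448 genes that varied over the groups, the likeness to each member was ranked by Pearson's r over the 16 means. Pparg was most like Knstrn, Ankrd13b and Sms (0.96 each), Cebpb like Fmnl2 (0.95), Cebpa like Aldh2 and Aph1b (0.92 each), Irf8 like Gaa, Ip6k1 and Tbc1d20 (0.93 each), Klf4 like Tra2a (0.96), and Maf like Kdm3a (0.89). Spi1 (Tspan15, 0.74), Runx1 (Csnk1g1, Kmt2e and Phf20, 0.79 each) and Nr4a1 (Kmo, 0.86) had weaker likenesses.

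**Figure D5:**
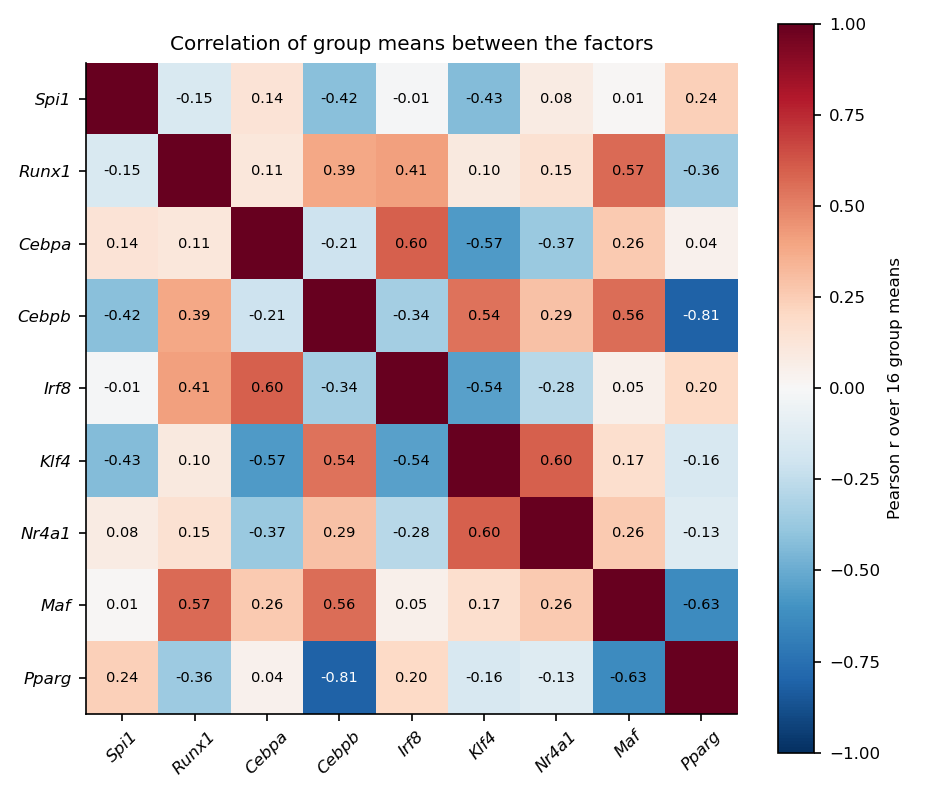
Heat map of Pearson's r between the members over the 16 group means (rows and columns, colour from -1 to 1). The lowest value is -0.81, Cebpb with Pparg, and the highest, 0.60, is shared by Cebpa with Irf8 and Klf4 with Nr4a1.

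Known targets of the factors were counted from lists of genes and set beside the factor itself. In Kupffer cells at 3 days 27.6%, 26.8% and 26.4% of all genes were called with HGF, Ito and CD146 cells, the shares beside which the counts of these 3 comparisons stand. Of 9 measured PPARgamma targets, 5 were higher and 1 lower in Kupffer cells with HGF at 3 days (median 1.15 against -0.00 over all genes), 7 and 1 with Ito cells (2.01 against 0.11), and 5 and 3 with CD146 cells (0.53 against 0.01). The lipid droplet coat gene Plin2 rose by 3.68 ± 0.22 with HGF and 4.51 ± 0.22 with Ito cells, lipoprotein lipase Lpl by 4.02 ± 0.43 and 3.41 ± 0.43, and the fatty acid scavenger receptor Cd36 by 2.70 ± 0.21 and 3.61 ± 0.21. The cholesterol exporter Abcg1 fell by 1.72 ± 0.40 with HGF in Kupffer cells, while in monocytic cells with HGF at 3 days it rose by 2.44 ± 0.40 together with Lpl (2.17 ± 0.43). In monocytic controls from 1 to 3 days 6 of 9 were higher by limma and 0 lower, against 29.3% of all genes called. There 0 were lower also at an unadjusted p under 0.05, the median was 0.88 against 0.13, and Pparg rose. In Kupffer controls 1 was higher and 5 lower (31.8% of all genes called, median -1.48 against 0.15), where Pparg fell. With CD146 cells over that time 0 were higher by limma and 3 lower in Kupffer cells, against 24.6% of all genes called (1 and 4 at an unadjusted p under 0.05, median -0.39 against 0.16). In monocytic cells 4 were higher and 4 lower, against 27.2% (0.11 against 0.18), and Pparg rose in both cells. With CD146 cells at 1 day 5 were higher and 1 lower in monocytic cells (2.33% of all genes called, 1.03 against 0.02), where Pparg was not called. Rxra, which encodes the DNA-binding partner of PPARgamma, fell in Kupffer cells at 3 days by 2.65 ± 0.30 with HGF.

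Of 10 measured PU.1 targets, 7 were lower in Kupffer cells with HGF at 3 days, 5 with Ito cells and 6 with CD146 cells, and 0 were higher by limma in each (0, 1 and 0 at an unadjusted p under 0.05), with medians of -1.60, -1.20 and -1.24 against -0.00, 0.11 and 0.01 over all genes, while Spi1 itself did not pass in these comparisons. With HGF the G-CSF receptor Csf3r fell by 7.08 ± 0.68, the integrin Itgam by 2.34 ± 0.35 and the MCSF receptor Csf1r by 1.81 ± 0.23. Several PU.1 targets, Itgam and Csf1r among them, are also on the list of core macrophage genes. That list averaged 16.15 to 16.51 in the Kupffer controls of 3 days and 13.70 to 14.34 with the additions. Its part in the lower targets was not tested. Of 8 IRF8 targets, 1 was higher and 5 lower with HGF, 1 and 4 with Ito cells, and 1 and 5 with CD146 cells, with medians of -1.31, -0.98 and -1.53 beside the lower Irf8. Klf4 is on that list and is the member that rose. The NADPH oxidase subunit Cybb fell by 3.14 ± 0.21 and the inducible nitric oxide synthase Nos2 by 3.44 ± 0.41 with HGF.

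Of 12 C/EBP targets, 8 were lower and 1 higher from 1 to 3 days in monocytic controls (29.3% of all genes called, median -4.39 against 0.13), and Arg1 (-9.81 ± 0.59), the cytokine genes Il6 (-7.72 ± 0.61) and Il1b (-8.51 ± 0.72) and the cyclooxygenase Ptgs2 (-7.60 ± 0.58) were lower, where Cebpb fell and Cebpa rose. In Kupffer cells with Ito cells at 1 day 8 were higher and 1 lower (23.5% of all genes called, median 3.21 against -0.24), among them Il6 (6.97 ± 0.61) and Il1b (5.86 ± 0.72), where Cebpa fell and Cebpb was not called. The 9 neutrophil genes averaged 8.15 to 9.29 in the controls of that comparison and 10.99 to 11.21 with Ito cells. Mpo and Elane are on both lists, and the part of the neutrophil genes was not tested. In Kupffer cells with HGF at 3 days 4 C/EBP targets were higher and 6 lower. With HGF the granule genes Mpo (7.06 ± 0.54) and Elane (6.64 ± 0.50) rose and Il1b (-10.35 ± 0.72) fell. Mpo and Elane are also neutrophil markers, and the 9 neutrophil genes averaged 5.65 to 5.89 in the controls and 7.84 to 8.85 with HGF, whose part was not tested.

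Family relatives and partners of the members were mixed. Of 24 measured relatives, 2 were higher and 7 lower in Kupffer cells with HGF at 3 days, 4 and 8 with Ito cells and 3 and 6 with CD146 cells, against 27.6%, 26.8% and 26.4% of all genes called. Irf7, the interferon response relative of Irf8, fell by 3.64 ± 0.51 with HGF, and Spic, the ETS relative of Spi1 found in iron-recycling macrophages, by 3.91 ± 0.60 with Ito cells. In monocytic cells with HGF Ets2 rose by 3.61 ± 0.49. Of 23 partners and cofactors, 6 were higher and 5 lower with HGF, 8 and 6 with Ito cells and 4 and 5 with CD146 cells in Kupffer cells, and Myc, a growth factor response gene, rose by 5.57 ± 0.49 with HGF. Of 7 genes that depend on NR4A1 in monocytes, 2 rose and 2 fell in Kupffer cells with HGF, among them the integrin Itgal (-6.56 ± 0.32).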

How the data were processed

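RNA of 48 cultures was measured on Affymetrix arrays, in 16 groups of 3 by cell, addition and time. The values deposited are log2 signals of probe sets, made by RMA in the Transcriptome Analysis Console per the submitters' processing notes, with versions not given in the sources used here. They run from 0.88 to 19.93, and nothing says if the arrays went through normalization as 1 set. Of 28846 probe sets, 6640 controls and 2634 without a symbol were set aside, and 55 genes had several probe sets, of which that with the highest mean was kept, which left 19505 genes with no filter on level. RefSeq's GRCm38.p6 tables served for names and promoters only. Results for 1 motif and 1 list of target genes are not reported here.

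limma 3.58.1 in R 4.3.3 was fitted with 1 mean per group, empirical Bayes moderation and a two-sided test, with Benjamini-Hochberg adjustment over all genes within each of 34 contrasts. The contrasts were each addition against its MCSF control, Kupffer against monocytic cells, 3 days against 1, and the Kupffer minus the monocytic response. The members and gene lists were chosen with earlier results of these data known. Named genes are all members, up to 4 genes per list and contrast with the smallest adjusted p, and the 3 genes most like each member among those with an SD of group means of at least 0.5; which of them are printed was decided with their values in view. Equal replicate numbers did not pair arrays (mean correlation of deviations -0.0103, against 0.0055 for different numbers, with all 3 over 0.1 in 1 of 120 pairs of groups). The fit was tried on simulated data. Alternatives rescaled the arrays (quantiles or medians), removed the dimmest 25 percent of genes, averaged a gene's probe sets, changed the variance model (robust with a trend, weighted arrays, a replicate block), fitted the compared arrays alone, or dropped arrays (the 3 that stood apart, or 1 at a time). Each member has 1 probe set, so the averaging, though counted among the alternatives, left member values unchanged (0 calls lost, 0 gained). Plots used matplotlib 3.10.9 (Python 3.11.15).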

Additional observations from a re-analysis of the deposited data

Results flagged for a closer look

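The following 10 results are listed because the test of the difference between the Kupffer and the monocytic response to the same addition passed after adjustment over all genes with limma (3 arrays per group). With Ito cells at 1 day the Kupffer response minus the monocytic one was -2.69 for Pparg (adjusted p = 0.00306, and 0.0756 with only the arrays compared in the fit), with no array above the negative control median in 3 of the 4 groups. With HGF at 3 days that difference was 1.75 for Maf (adjusted p = 0.0266), -1.73 for Irf8 (adjusted p = 0.0159) and 3.24 for Pparg (adjusted p = 3.76e-05). With Ito cells at 3 days it was 2.46 for Maf (adjusted p = 0.00212) and 4.86 for Pparg (adjusted p = 2.12e-08). With CD146 cells at 3 days it was -1.53 for Cebpa (adjusted p = 0.0462, a call that 11 of 21 alternatives ended), -2.39 for Cebpb (adjusted p = 0.00976), -1.72 for Irf8 (adjusted p = 0.0134) and 6.34 for Pparg (adjusted p = 1.45e-11). For Pparg the Kupffer controls of 3 days, which enter all 3 differences of that time, had no array above the negative control median. Without replicate 3 of the monocytic controls of 3 days, whose cell cycle genes stood high, the Irf8 differences had adjusted p of 0.075 with HGF and 0.0745 with CD146 cells, and that of Cebpa 0.13. The Irf8 difference with HGF was ended by 5 of 21 alternatives, with an adjusted p of up to 0.189, under array weights, and values from -2.32 to -0.77. The Maf difference with HGF was ended by 6 of 21, with an adjusted p of up to 0.131. Groups of 3 arrays are too small for a test of single outlying arrays.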

How the results depend on the processing

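Of 306 pairs of a member and a comparison, 89 were called; 56 of these calls held under every alternative run and 33 were lost under at least 1, while 66 others passed under at least 1. Counts of monocytic additions past the threshold moved from 6 to 13 with array weights, 10 with only the arrays compared and 12 without the 3 arrays that stood apart, and the count for Kupffer against monocytic cells from 19 to 30 with array weights. Leaving out each of the 48 arrays in turn gave 16 to 22 calls for Kupffer additions, 3 to 10 for monocytic additions (3 without monocytic HGF of 1 day replicate 1 or monocytic MCSF of 1 day replicate 3, 10 without Kupffer HGF of 1 day replicate 2), 17 to 21 for Kupffer against monocytic cells, 33 to 43 for time and 7 to 13 for the difference of responses. With the replicate number as a block, though the numbers did not pair the arrays, the counts were 18, 5, 17, 35 and 9. Values that changed sign were Spi1 in Kupffer against monocytic cells with HGF at 1 day (-0.08 after quantile normalization, -0.14 after centring) and from 1 to 3 days in Kupffer cells with HGF (0.66 after quantile normalization) or with Ito cells (-0.59 after centring), and Runx1 from 1 to 3 days in Kupffer cells with HGF (-0.94 after quantile normalization, -0.62 without the 3 arrays). The cause was not tested. Signals near the negative control limit Pparg, Klf4 and Nr4a1.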
